A study of Homo sapiens with 8 samples.

Results

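Transcripts of 34 genes of the integrated stress response and the unfolded protein response were compared between SETD1A-targeted and control cells of the human breast cancer line KPL-1. The genes were taken by name from lists of these pathways, and a gene was kept if its TPM averaged 1 or more over the libraries. The choice was made with earlier results of these data known, so the counts below are descriptions. TPM is a transcript level corrected for transcript length and scaled to a common total. All 34 were found among the 19035 gene symbols of the expression table, and all 34 met the condition. They fall into 5 transcription factors of the integrated stress response, 5 of its effectors and feedback genes, 4 amino acid genes driven by ATF4, 5 genes of serine synthesis and mitochondrial folate metabolism, 10 chaperones and folding enzymes of the endoplasmic reticulum (ER), 2 genes of ER-associated degradation and 3 stress sensors.

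The study asks what the histone methyltransferase SETD1A does in these cells. The sgSETD1A group holds 3 RNA libraries of cells with a guide against SETD1A, labelled as a knockout, and the sgEmpty group holds 3 RNA libraries of cells with an empty guide vector, labelled as wild type. Both groups carry a doxycycline-inducible Cas9 (iCas9) and were taken at day 7 of doxycycline, so the controls share the nuclease and the drug. An empty vector supplies no guide, so cutting by Cas9 and loss of SETD1A cannot be told apart in this comparison. The labels leave out how many guides were used, whether the cells were cloned and whether replicates were separate cultures. P-values therefore measure the spread between 3 libraries a group, part or all of which may be technical.

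Cells sense amino acid shortage, viral RNA, haem shortage and misfolded ER proteins through kinases that phosphorylate the translation factor eIF2. This lowers general protein synthesis while the transcription factor ATF4 is made from its messenger RNA, mainly by translation, and ATF4 turns on genes for amino acid uptake, amino acid synthesis and serine-derived folate metabolism. Misfolded ER proteins act through PERK (the product of EIF2AK3), IRE1 (ERN1) and ATF6, and the last pair of these sensors drives genes for chaperones and for degradation. The measurements below are of RNA and do not show phosphorylation, splicing or protein.

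SETD1A itself was lower in every library labelled as its knockout. It stood at 10.4 ± 0.97 TPM in sgSETD1A and 17.7 ± 0.31 TPM in sgEmpty (SD, n = 3 each), a difference of -0.71 log2 (limma adjusted p = 9.13e-05). Cas9 edits can leave transcript levels as they were, and editing of the gene was not analysed here. All 8 luminal epithelial markers were present in every library, ESR1 being the lowest of them at 38.5 to 41.2 TPM. By the test described next, 6 of the 8 were called higher in sgSETD1A (3 higher and 1 lower after median-ratio rescaling). Of all genes tested, 28.0% were higher, and after this rescaling 15.5% were higher and 19.2% lower. The part of the markers in the results below was not tested. Of 10 markers of fibroblasts, endothelium and leukocytes, COL1A1 stood at 3.43 ± 0.92 TPM in sgSETD1A and 2.77 ± 0.29 TPM in sgEmpty (SD, n = 3 each), MS4A1 was listed at 0 in all 6 libraries, and no other marker passed 0.233 TPM in any library. The summed level of the 10 ran from 2.50 to 4.58 TPM in sgSETD1A and from 2.63 to 3.39 TPM in sgEmpty. Replicate 1 of sgSETD1A lay apart from its group on the second principal component (12.8, against -5.61 and -6.55). Depth cannot be read from TPM and is unknown for these libraries. In bulk RNA, fewer cells of a type and less RNA per cell cannot be told apart.

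Changes are differences of log2(TPM + 1), sgSETD1A minus sgEmpty, tested with limma across the 11885 genes that averaged 1 TPM or more. Genes with a Benjamini-Hochberg adjusted p under 0.05 over all of these are called higher or lower here. Of the 34 genes, 9 were higher, 10 were lower and 15 did not pass. Over all genes tested, 28.0% were higher and 13.5% were lower, 41.5% in either direction, with a median change of 0.073. The share of higher calls among the 34 genes (26.5%) was near that background, while the share of lower calls (29.4%) was above it, and the median change of the 34 was -0.003, with values from -0.030 (without sgSETD1A replicate 1) to 0.027 (without sgEmpty replicate 1) when 1 library was left out. The libraries of both groups did not overlap for 19 of the 34 genes, beside 53.7% of all genes tested, which is again near the background. TPM forces every library to the same total, and the balance of calls depended on this scaling. With library sizes set by median ratios, 3 of the 34 genes were higher and 11 lower, beside 1837 higher and 2284 lower over all genes tested. With quantile normalization 5 of the 34 were higher and 11 lower, beside 2142 and 2056.

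**Figure D1:**
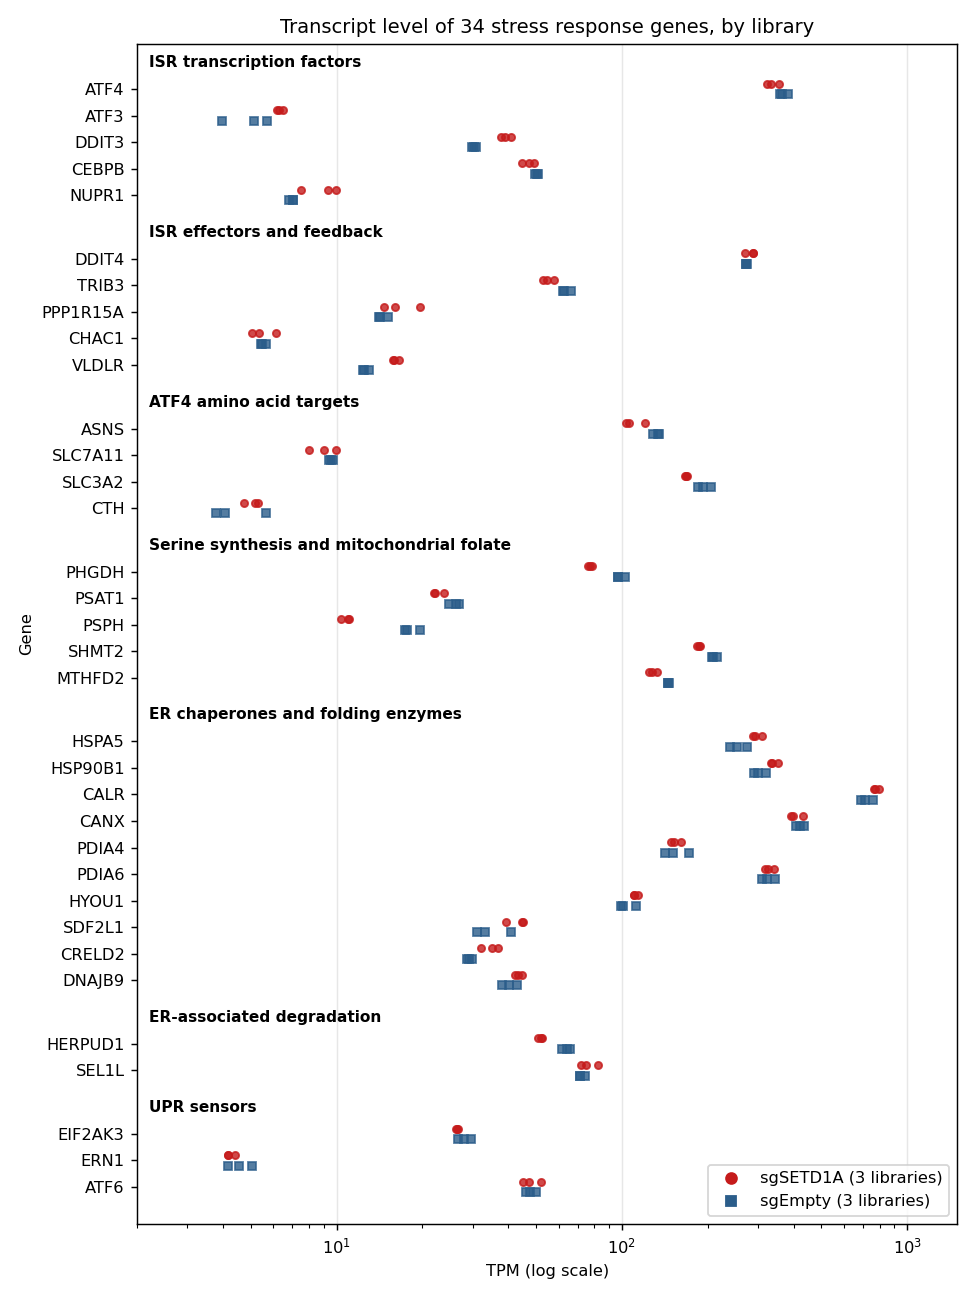
Transcript level (TPM, log scale) of each of the 34 genes in the 3 sgSETD1A libraries (red circles) and the 3 sgEmpty libraries (blue squares), grouped by role. CALR had the highest levels, up to 796 TPM in sgSETD1A, and CTH, ERN1, CHAC1 and ATF3 the lowest; the PSPH libraries show the widest gap between the groups, with 10.4 to 11.1 TPM in sgSETD1A and 17.4 to 19.5 TPM in sgEmpty.

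Among the transcription factors, ATF4 itself was slightly lower while DDIT3, NUPR1 and ATF3, stress-induced factors known to act downstream of it, were higher. ATF4 had 324, 334 and 354 TPM in the sgSETD1A libraries, against 357.5, 365 and 382 TPM in the sgEmpty libraries. The groups lay next to each other without overlapping, and the mean fell by 8.37% in sgSETD1A, a change of -0.13 log2 (limma adjusted p = 0.033). DDIT3, which encodes the factor CHOP that promotes cell death in prolonged ER stress, had 39.0, 37.7 and 40.7 TPM in sgSETD1A, against 30.3, 30.8 and 29.8 TPM in sgEmpty. Every sgSETD1A library stood above every sgEmpty library, by 29.3% between the means, and the change of 0.36 log2 (SE 0.047; limma adjusted p = 0.00040) passed in all 14 alternatives tried.

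NUPR1, a small chromatin-associated stress protein, had 9.32, 9.95 and 7.51 TPM in sgSETD1A, against 7.02, 7.01 and 6.81 TPM in sgEmpty (0.31 log2; limma adjusted p = 0.025). Replicate 3 of sgSETD1A was close to the controls. ATF3, a factor of the same family as ATF4 that is induced early in many stresses, had 6.49, 6.16 and 6.29 TPM in sgSETD1A, against 3.98, 5.15 and 5.70 TPM in sgEmpty (0.31 log2; limma adjusted p = 0.043). The spread here was in the controls, the sgSETD1A libraries being almost level. CEBPB, a partner of ATF4 on DNA, had 49.2, 44.8 and 47.3 TPM in sgSETD1A and 50.5, 49.7 and 50.9 TPM in sgEmpty, a change of -0.10 log2 that did not pass (limma adjusted p = 0.12).

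Several of these calls depended on single libraries or on the processing. That of ATF4 was lost without sgSETD1A replicate 1 or 2 or sgEmpty replicate 2 or 3 (limma adjusted p = 0.076, 0.086, 0.073 and 0.12), and also without a filter on low TPM (0.064) and without the trend of limma (0.095). That of ATF3 was lost without any 1 library other than sgEmpty replicate 3 (limma adjusted p from 0.071 to 0.11), and that of NUPR1 without any 1 other than sgSETD1A replicate 3 (0.058 to 0.090), and both were lost under either rescaling (0.067 to 0.11) and without a filter (0.095 for ATF3 and 0.063 for NUPR1). Without the trend of limma ATF3 was lost too (0.054). CEBPB passed as lower under median-ratio rescaling (limma adjusted p = 0.020), quantile normalization (0.049) and without sgSETD1A replicate 1 (0.042). The span of DDIT3 in RefSeq overlaps that of the methionine tRNA synthetase gene, listed here as MARS. The labels name a strand-keeping library kit but not the strand setting of the counting, so reads of the overlap could be shared. MARS stood at 121 ± 1.32 TPM in sgSETD1A and 130.1 ± 2.07 TPM in sgEmpty (SD, n = 3 each), a change of -0.11 log2 (limma adjusted p = 0.029) in the opposite direction to DDIT3. ATF4 has 4 pseudogenes by name in RefSeq, and its level is uncertain to the extent that reads were shared with them. The spans of SHMT2, MTHFD2, PDIA6 and CANX, described below, also overlap those of other protein-coding genes in RefSeq, so their reads could be shared too.

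**Figure D2:**
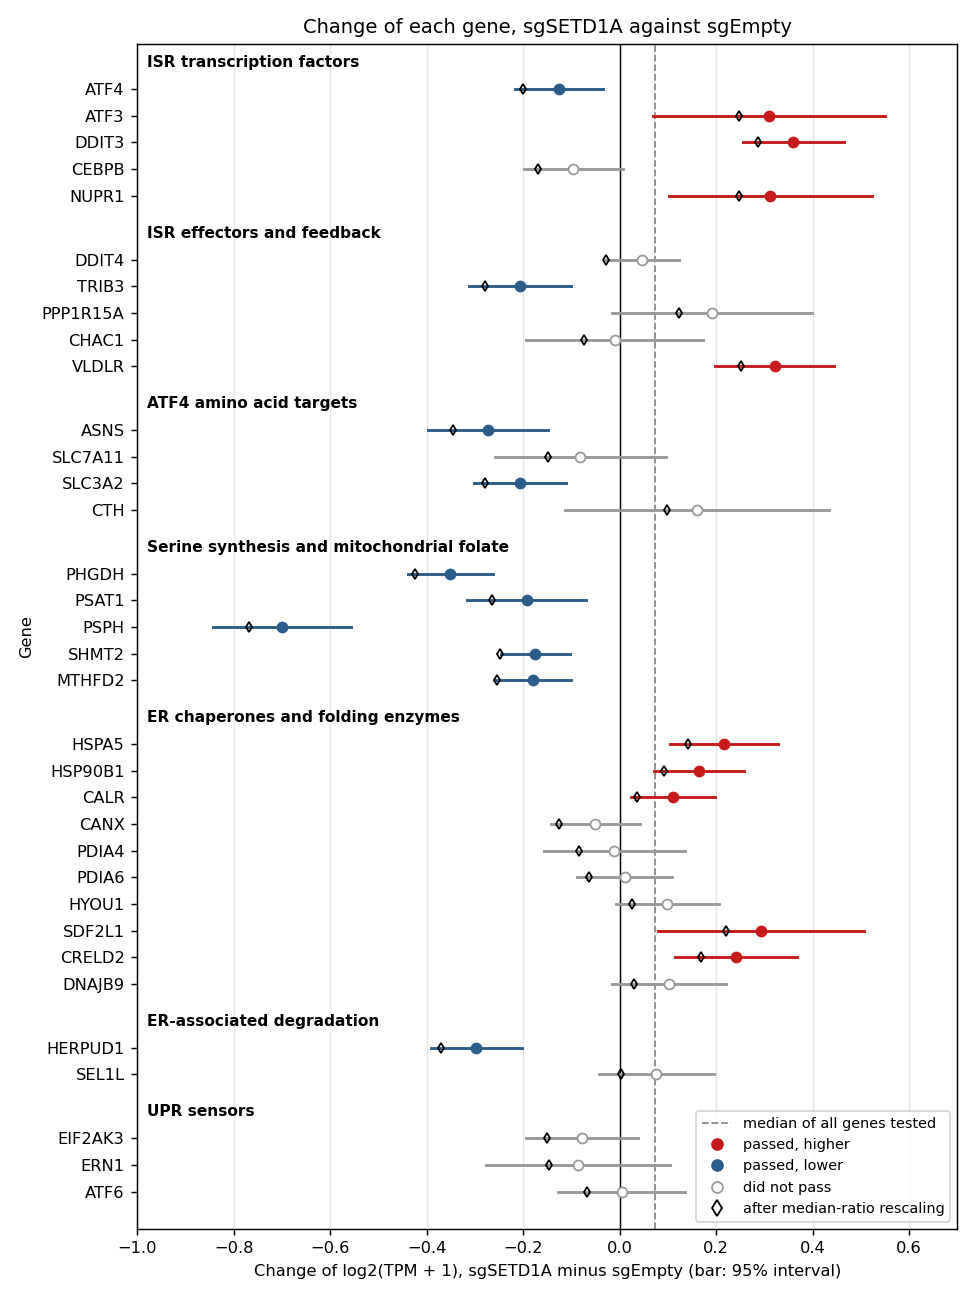
Change of log2(TPM + 1), sgSETD1A minus sgEmpty, for each of the 34 genes with its 95% interval from the fit over all genes; filled circles passed (red higher, blue lower), open circles did not, diamonds give the change after median-ratio rescaling, and the dashed line is the median of all genes tested (0.073). The serine synthesis genes lie left of 0 without exception, the chaperones lie near or right of it, and PSPH lies farthest out at -0.70.

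Of the effectors and feedback genes, 1 was higher (20%, beside 28.0% of all genes tested) and 1 was lower (20%, beside 13.5%). The remaining 3 did not pass. The median change of the effectors was 0.046 log2. The sign of this median turned under both rescalings (-0.028 log2 by median ratios and -0.044 by quantiles), and it was 0.076 log2 without sgSETD1A replicate 1 and 0.029 log2 without sgSETD1A replicate 2. TRIB3, a pseudokinase induced by ATF4 and CHOP that holds ATF4 in check, had 54.7, 57.7 and 52.8 TPM in sgSETD1A, against 66.1, 62.3 and 62.6 TPM in sgEmpty. All 3 sgSETD1A libraries were below all controls, and the mean fell by 13.5% (-0.21 log2, SE 0.047; limma adjusted p = 0.0072). VLDLR, a lipoprotein receptor induced through ATF4 in ER stress, had 15.9, 15.8 and 16.6 TPM in sgSETD1A, against 12.5, 12.4 and 13.0 TPM in sgEmpty. It was the higher gene of this group, by 26.9% between the means (0.32 log2, SE 0.055; limma adjusted p = 0.0017). Both TRIB3 and VLDLR passed in all 14 alternatives.

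The groups overlapped for the other 3. DDIT4, an inhibitor of the growth kinase mTORC1, had 271, 289 and 287 TPM in sgSETD1A and 275, 273 and 272 TPM in sgEmpty (95% interval of the change -0.03 to 0.12 log2). PPP1R15A, which brings a phosphatase to eIF2 and ends the response, had 14.7, 16.0 and 19.6 TPM in sgSETD1A and 14.1, 14.2 and 15.1 TPM in sgEmpty. Its sgSETD1A libraries spread more widely than its controls, and its change of 0.19 log2 (limma adjusted p = 0.12) passed without sgSETD1A replicate 1 (0.28 log2, limma adjusted p = 0.027). CHAC1, an enzyme of glutathione breakdown and a known ATF4 target, had 5.03, 6.11 and 5.33 TPM in sgSETD1A and 5.45, 5.48 and 5.64 TPM in sgEmpty (95% interval of the change -0.19 to 0.17 log2).

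Of the 4 amino acid genes driven by ATF4, asparagine synthetase and the shared transporter chain SLC3A2 were lower, SLC7A11 and CTH did not pass, and the median change was -0.14 log2. Lower calls made up 50% of the 4, beside 13.5% of all genes tested. ASNS, which makes asparagine and is the classical gene of the amino acid response, had 120.4, 106 and 104 TPM in sgSETD1A, against 129, 135 and 134 TPM in sgEmpty. Replicate 1 of sgSETD1A was the nearest to the controls, no library crossed between the groups, and the mean fell by 17.2% (-0.27 log2, SE 0.056; limma adjusted p = 0.0043). SLC3A2, the heavy chain that several amino acid transporters need at the cell surface, had 166, 169 and 168 TPM in sgSETD1A, against 206, 192 and 184 TPM in sgEmpty (-0.21 log2, SE 0.043; limma adjusted p = 0.0045). The sgSETD1A libraries were nearly level and below all controls, and the calls of both genes held in all 14 alternatives. RefSeq names 5 pseudogenes of ASNS, with which reads could be shared.

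SLC7A11, the cystine transporter that pairs with SLC3A2, had 9.95, 9.01 and 8.0 TPM in sgSETD1A and 9.70, 9.54 and 9.37 TPM in sgEmpty (-0.08 log2; limma adjusted p = 0.43). Its sgSETD1A libraries lay on both sides of the controls. CTH, which makes cysteine from cystathionine, had 5.32, 4.73 and 5.17 TPM in sgSETD1A and 4.06, 5.65 and 3.77 TPM in sgEmpty (0.16 log2; limma adjusted p = 0.32). A single high control, replicate 2, lay above all sgSETD1A libraries, and without it CTH passed as higher (0.30 log2, limma adjusted p = 0.039).

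The composite element to which ATF4 and its C/EBP partners bind, read here as TGATGNAA on either strand, was looked for in RefSeq promoter windows of GRCh38.p14, each reaching from 250 bases before a gene's start to 50 bases after it. Entries were matched for 30 of the 34 genes; PSPH, SHMT2, SLC7A11 and NUPR1 had none. The element was found in a window of each of ASNS, SLC3A2, HERPUD1, ATF3 and CHAC1, and in 3.62% of all 35116 windows. Genes and windows are unlike units. The 34 genes were taken by name from these pathways, so their matches are no result of these data. A gene was counted if any of its windows matched, and ASNS, SLC3A2 and ATF3 have further windows without a match. Of the 5 genes, 3 were lower in sgSETD1A, 1 was higher and 1 did not pass. Over all genes tested, 13.5% were lower and 28.0% higher. The higher one, ATF3, lost its call in 9 of the 14 alternatives, as given above. The stretches below give the matches, with the element in capitals and 8 bases on each side, on the strand that carries it. The capitals are alike because the search pattern fixed them, apart from the letter at N. In SLC3A2 the match lies after the gene's start, and the window ends 5 bases from it.
ASNS, lower, chr7:97872461-97872484, minus strand: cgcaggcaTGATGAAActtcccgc
SLC3A2, lower, chr11:62881728-62881748, minus strand: ggagcTGATGTAAggagtcct
HERPUD1, lower, chr16:56931958-56931981, minus strand: gcacgggcTGATGCAAcccgccgc
ATF3, higher, chr1:212565208-212565231, plus strand: ggtcaggaTGATGGAAggctgtca
CHAC1, did not pass, chr15:40953254-40953277, minus strand: ggcaggagTGATGCAAcggcaggg

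The ASNS window is shown for its place as the lower gene with the largest change among the amino acid genes, as the 250 bases that precede the first of its RefSeq starts in the table, with the element in capitals.
ASNS, chr7:97872409-97872658, minus strand: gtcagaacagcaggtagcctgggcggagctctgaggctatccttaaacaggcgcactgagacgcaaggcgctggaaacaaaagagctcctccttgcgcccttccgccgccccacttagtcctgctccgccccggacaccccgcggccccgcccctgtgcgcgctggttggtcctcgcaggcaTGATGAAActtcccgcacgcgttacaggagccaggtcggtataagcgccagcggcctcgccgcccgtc

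All 5 genes of serine synthesis and mitochondrial folate metabolism were lower in sgSETD1A, beside 13.5% of all genes tested. They were chosen with earlier results of these data known, so this count is a description. For each of the 5, all 3 sgSETD1A libraries lay below all 3 controls. Groups that do not overlap are common here, at 53.7% of all genes tested. The median change of the 5 was -0.19 log2, beside 0.073 for all genes tested. Summed over the 5, the level was 431, 427 and 418 TPM in sgSETD1A, against 507, 495 and 494 TPM in sgEmpty. All 5 were also lower under both rescalings, with medians of -0.26 log2 by median ratios and -0.25 log2 by quantiles. Of all genes tested, 19.2% were lower by median ratios and 17.3% by quantiles.

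The largest change was at the last step of serine synthesis. PSPH, the phosphatase that releases serine, had 10.4, 10.99 and 11.1 TPM in sgSETD1A, against 17.7, 17.4 and 19.5 TPM in sgEmpty. Its mean fell by 40.6%, or -0.70 log2 (SE 0.064; limma adjusted p = 6.0e-05), the largest change of any of the 34 genes. PHGDH, the enzyme of the first and committed step, had 75.8, 78.9 and 77.0 TPM in sgSETD1A, against 102, 97.1 and 97.0 TPM in sgEmpty. The gap between the groups was several times the spread within either, at -0.35 log2 (SE 0.039; limma adjusted p = 0.00017). PSAT1, the aminotransferase between these steps, had 23.7, 22.1 and 21.9 TPM in sgSETD1A, against 26.9, 26.3 and 24.7 TPM in sgEmpty (-0.19 log2; limma adjusted p = 0.020). PSAT1 was the least firm of the 5, its call being lost without sgSETD1A replicate 2 or 3 or sgEmpty replicate 1 or 2 (limma adjusted p = 0.061, 0.069, 0.065 and 0.067).

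Downstream of serine, SHMT2 moves a carbon unit onto folate in mitochondria and MTHFD2 carries that unit further. SHMT2 had 188, 187 and 183 TPM in sgSETD1A, against 215, 209 and 207 TPM in sgEmpty (-0.17 log2, SE 0.032; limma adjusted p = 0.0023). MTHFD2 had 133, 128 and 124 TPM in sgSETD1A, against 145, 145 and 146 TPM in sgEmpty (-0.18 log2, SE 0.036; limma adjusted p = 0.0036). SHMT2 fell by 11.5% and MTHFD2 fell by 11.8%, less than PSPH, in genes with higher TPM. Except for PSAT1, all of these serine and folate genes passed in all 14 alternatives. RefSeq names 7 pseudogenes of MTHFD2, 4 of PSAT1 and 1 of PSPH, so their levels are uncertain where reads were shared. The spans of SHMT2 and MTHFD2 overlap those of COXFA4L2 and SLC4A5, so reads of these overlaps could be shared as well. TGATGNAA was not found in the windows of PHGDH, PSAT1 or MTHFD2. Nor was it found in those of DDIT3, TRIB3 or VLDLR, described above as downstream of ATF4 or induced through it. A missing match therefore does not set the serine genes apart from these.

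**Figure D3:**
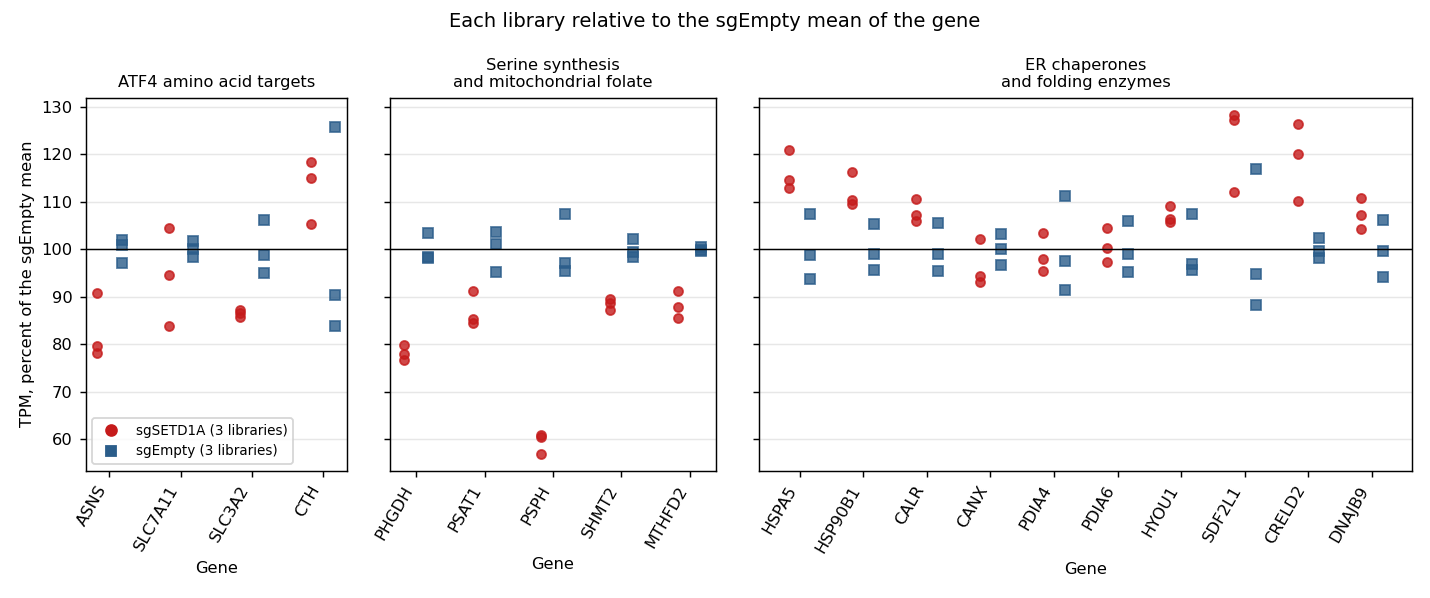
TPM of each library as a percentage of the gene's sgEmpty mean, for the ATF4 amino acid targets (left), the serine and folate genes (middle) and the ER chaperones and folding enzymes (right); red circles are the 3 sgSETD1A libraries and blue squares the 3 sgEmpty libraries. The serine genes sit below the 100 line in every sgSETD1A library, the chaperones HSPA5, HSP90B1, CALR and CRELD2 sit above all controls, and sgEmpty replicate 1 was the highest control for 9 of the 10 chaperones.

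The ER chaperones and folding enzymes had 5 higher, 0 lower and 5 that did not pass by limma at an adjusted p under 0.05, with a median change of 0.11 log2, beside 28.0% higher, 13.5% lower and a median of 0.073 log2 for all genes tested. This count depended on scaling, being 1 of 10 with a median of 0.033 log2 by median ratios, where 15.5% of all genes tested were higher, and 3 of 10 with a median of 0.062 log2 by quantiles, where 18.0% were higher. Summed over the 10, the level was 2616, 2488 and 2501 TPM in sgSETD1A, against 2530 (replicate 1), 2367 and 2274 TPM in sgEmpty. The sums overlapped, and sgEmpty replicate 1 was the highest control for 9 of the 10 genes and replicate 3 the lowest for 9. Replicate 1 of sgSETD1A was likewise the highest of its group for 7 of the 10. Without sgEmpty replicate 1, 6 of the 10 were higher, and 3 were higher when sgEmpty replicate 2 or 3, or sgSETD1A replicate 2 or 3, was left out.

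HSPA5, which encodes BiP, the main ER chaperone and the protein that holds the sensors inactive, had 309, 289 and 293 TPM in sgSETD1A, against 275, 253 and 239.9 TPM in sgEmpty. No library crossed between the groups, at 0.22 log2 (SE 0.050; limma adjusted p = 0.0081), and this call was lost after median-ratio rescaling (0.14 log2, limma adjusted p = 0.059). HSP90B1, the HSP90 of the ER, had 354, 333 and 336 TPM in sgSETD1A, against 320.0, 301 and 291 TPM in sgEmpty (0.16 log2, SE 0.041; limma adjusted p = 0.011). Its call was lost under both rescalings (limma adjusted p = 0.13 and 0.091). CRELD2, an ER-resident protein induced by ER stress, had 32.2, 35.1 and 36.9 TPM in sgSETD1A, against 29.9, 28.7 and 29.1 TPM in sgEmpty (0.24 log2, SE 0.056; limma adjusted p = 0.0085). CRELD2 passed in all 14 alternatives, both rescalings included, and was the sole one of these 10 genes that did. RefSeq names 1 pseudogene of HSPA5.

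The other higher calls were weaker. SDF2L1, which works with BiP and its J-domain partners, had 39.3, 44.6 and 45.0 TPM in sgSETD1A, against 40.9, 33.2 and 31.0 TPM in sgEmpty. The first sgSETD1A library fell below the first control, so the groups overlapped, and the change of 0.29 log2 (limma adjusted p = 0.034) was lost without sgSETD1A replicate 2 or 3 or sgEmpty replicate 2 or 3 (limma adjusted p = 0.095, 0.099, 0.11 and 0.12). It was also lost by median ratios (0.094), without a filter on low TPM (0.088) and without the trend of limma (0.068). CALR, the calcium-binding lectin chaperone calreticulin, had 796, 763 and 773 TPM in sgSETD1A, against 760.2, 713 and 687 TPM in sgEmpty. Its change of 0.11 log2 (limma adjusted p = 0.044) was near the median of all genes, and was lost without any 1 library other than sgEmpty replicate 1 (limma adjusted p from 0.062 to 0.15) under both rescalings (0.52 and 0.41), without a filter (0.090) and without the trend of limma (0.13).

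For the remaining folding genes the groups overlapped. CANX, the membrane-bound partner of calreticulin, had 430.2, 392 and 398 TPM in sgSETD1A and 434, 422 and 408 TPM in sgEmpty (95% interval of the change -0.14 to 0.04 log2). The disulfide isomerase genes PDIA4 and PDIA6 changed by -0.01 log2 (95% interval -0.16 to 0.13) and 0.01 log2 (-0.09 to 0.11). HYOU1, which helps BiP exchange nucleotide, had 111, 109.8 and 113 TPM in sgSETD1A and 112, 101 and 99.5 TPM in sgEmpty (0.10 log2; limma adjusted p = 0.12). Control replicate 1 was level with the sgSETD1A libraries, and HYOU1 passed without it (0.15 log2, limma adjusted p = 0.018). DNAJB9, a J-domain partner of BiP that restrains IRE1, had 44.7, 43.3 and 42.1 TPM in sgSETD1A and 40.2, 42.9 and 38.0 TPM in sgEmpty (0.10 log2; limma adjusted p = 0.15).

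The ER stress element, bound by ATF6 and XBP1 together with NF-Y, was read as CCAAT, a gap of 9 bases and CCACG on either strand. It was found in the windows of 6 of the 10 folding genes, namely HSPA5, HSP90B1, CALR, CRELD2, CANX and PDIA6, and in 27 of all 35116 windows (0.0769%). A gene was counted if any of its windows matched, so genes and windows are unlike units. The folding genes were taken by name from this pathway, so their matches are no result of these data. Of these 6 genes 4 were higher and 2 did not pass, beside 28.0% higher of all genes tested. By median ratios the calls of HSPA5, HSP90B1 and CALR were lost, as given above, and that of CRELD2 held. ER stress element II, read as ATTGG, 1 base and CCACG, was found in the windows of SDF2L1 (higher), HYOU1 (did not pass) and HERPUD1 (lower), and in 0.0541% of all windows. The UPR element TGACGTGG was found for HYOU1, where it overlaps a match of ER stress element II, and in 0.729% of all windows. These matches show shared letters and not binding. The stretches that match the ER stress element are given to compare the genes that were higher with those that did not pass, with the whole match in capitals on the strand that carries it. HSP90B1 has a pair of matches, and both are shown.
HSPA5, higher, chr9:125241383-125241417, minus strand: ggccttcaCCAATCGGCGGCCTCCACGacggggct
HSP90B1, higher, chr12:103930208-103930242, plus strand: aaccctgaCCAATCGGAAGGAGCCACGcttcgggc
HSP90B1, higher, chr12:103930313-103930347, minus strand: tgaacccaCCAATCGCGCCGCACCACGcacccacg
CALR, higher, chr19:12938376-12938410, minus strand: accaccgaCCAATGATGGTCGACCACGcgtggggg
CRELD2, higher, chr22:49918546-49918580, minus strand: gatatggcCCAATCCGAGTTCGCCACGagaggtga
CANX, did not pass, chr5:179698770-179698804, plus strand: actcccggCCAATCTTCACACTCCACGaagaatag
PDIA6, did not pass, chr2:10812845-10812879, minus strand: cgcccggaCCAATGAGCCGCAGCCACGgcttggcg

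The 250 bases before the start are given for HSPA5, the best known target of the pathway, and for SDF2L1, the called folding gene with the largest change, with the ER stress element of HSPA5 and the ER stress element II of SDF2L1 (on the other strand) in capitals.
HSPA5, chr9:125241344-125241593, minus strand: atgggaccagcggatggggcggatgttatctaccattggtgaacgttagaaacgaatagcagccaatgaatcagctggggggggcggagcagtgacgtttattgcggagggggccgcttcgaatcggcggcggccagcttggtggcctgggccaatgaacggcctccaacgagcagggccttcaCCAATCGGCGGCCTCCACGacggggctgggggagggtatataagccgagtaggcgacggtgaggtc
SDF2L1, chr22:21642052-21642301, plus strand: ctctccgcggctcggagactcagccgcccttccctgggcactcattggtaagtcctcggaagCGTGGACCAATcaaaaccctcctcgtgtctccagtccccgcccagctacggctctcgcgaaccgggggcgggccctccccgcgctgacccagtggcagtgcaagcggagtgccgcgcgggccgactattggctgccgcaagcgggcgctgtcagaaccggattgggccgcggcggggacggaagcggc

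HERPUD1, whose window holds both TGATGNAA and ER stress element II, moved against the chaperones. It encodes an ER membrane protein that assembles the degradation machinery, and had 52.0, 52.5 and 50.8 TPM in sgSETD1A, against 65.9, 61.6 and 64.0 TPM in sgEmpty. The sgSETD1A libraries were tightly grouped and below all controls, and the mean fell by 18.9% (-0.30 log2, SE 0.042; limma adjusted p = 0.00063). Its call held in all 14 alternatives. SEL1L, the scaffold of the same machinery, had 82.5, 71.8 and 75.1 TPM in sgSETD1A and 74.3, 71.6 and 71.3 TPM in sgEmpty (0.08 log2; limma adjusted p = 0.28). The difference between the changes of HERPUD1 and SEL1L was not tested.

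None of the 3 sensor genes passed, and the groups overlapped for each. EIF2AK3 had 26.6, 26.2 and 26.5 TPM in sgSETD1A and 29.5, 27.9 and 26.5 TPM in sgEmpty (95% interval of the change -0.19 to 0.04 log2). ERN1, the lowest of the 34 genes by mean level, had 4.16, 4.41 and 4.18 TPM in sgSETD1A and 4.53, 5.05 and 4.16 TPM in sgEmpty (95% interval -0.28 to 0.10 log2). ATF6 had 52.0, 45.1 and 47.4 TPM in sgSETD1A and 47.7, 50.2 and 46.0 TPM in sgEmpty (95% interval -0.13 to 0.14 log2). Each of these intervals includes a change of the size seen in ATF4 (-0.13 log2).

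The median changes of the serine and amino acid groups lay below that of all genes tested, and that of the chaperones slightly above it. In each library, the median deviation from the sgEmpty means was taken over the genes of a group. For the serine and folate genes it was -0.16, -0.22 and -0.23 log2 in sgSETD1A, against 0.03, -0.01 and -0.02 log2 in sgEmpty, with no overlap. For the amino acid genes it was -0.04, -0.13 and -0.22 log2 in sgSETD1A, against -0.01, 0.01 and -0.05 log2 in sgEmpty, where replicate 1 of sgSETD1A lay among the controls. For the chaperones it was 0.14, 0.09 and 0.11 log2 in sgSETD1A, against 0.08, -0.01 and -0.07 log2 in sgEmpty, the lowest sgSETD1A library being just above replicate 1 of sgEmpty. Over all genes tested the same measure was 0.06 to 0.08 log2 in sgSETD1A, so the chaperone medians were close to that of all genes and the serine medians far below it. These medians are descriptions, and no test was made of the difference between the groups.

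**Figure D4:**
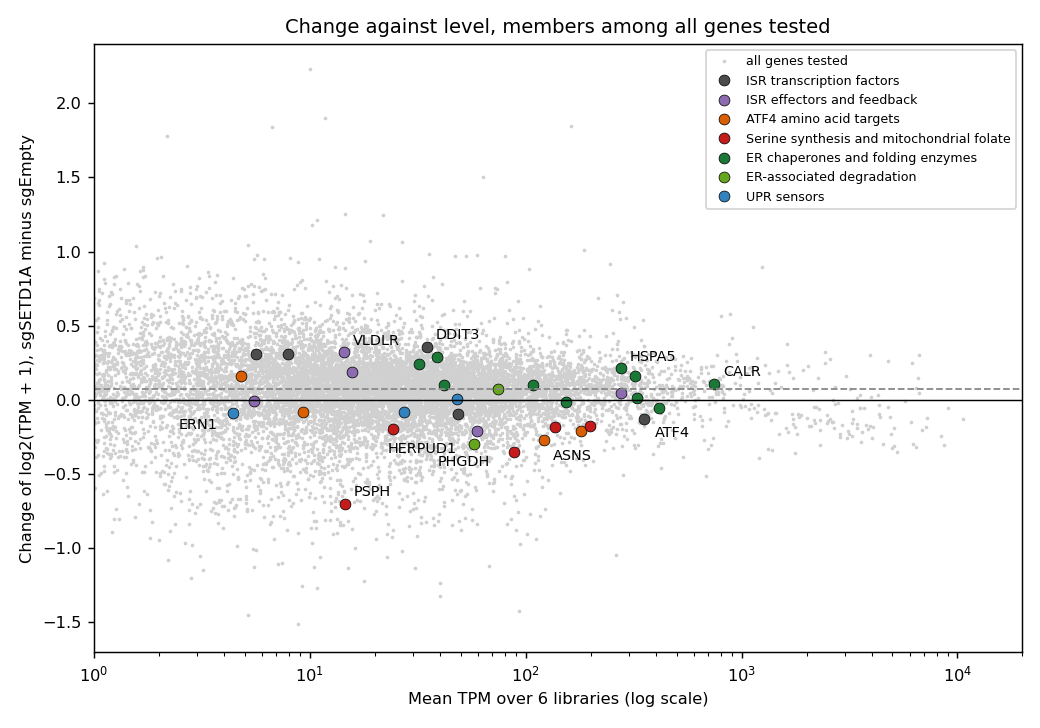
Change of log2(TPM + 1), sgSETD1A minus sgEmpty, against mean TPM over the 6 libraries (log scale) for all 11885 genes tested (grey) and the 34 genes (coloured by role); the dashed line is the median of all genes tested. Apart from PSPH at -0.70, the 34 genes lie within -0.35 and 0.36 log2, inside the cloud of other genes at the same level.

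Further genes of the same pathways gave the setting of these changes. Of 20 other ATF4 and amino acid genes, 2 were higher (10%, beside 28.0% of all genes tested) and 6 were lower (30%, beside 13.5%). The remaining 12 did not pass, and the median of the 20 was -0.10 log2. By median ratios 0 were higher (beside 15.5% of all genes tested) and 10 lower (50%, beside 19.2%). Their median was then -0.17 log2, beside 0.004 log2 for all genes tested. By quantiles 0 were higher (beside 18.0%) and 8 lower (40%, beside 17.3%). With TPM as deposited, the median of the 20 was -0.056 log2 without sgEmpty replicate 1. Without sgSETD1A replicate 2, or without any 1 control, 1 was higher, and without sgSETD1A replicate 3 there were 0 higher and 4 lower. SLC7A5, the light chain that joins SLC3A2 to import leucine and other large amino acids, was at 113 ± 3.88 TPM in sgSETD1A and 175 ± 12.1 TPM in sgEmpty (SD, n = 3 each), a change of -0.63 log2 (limma adjusted p = 3.3e-05). ALDH18A1, which starts proline synthesis, changed by -0.32 log2 and SLC7A1, a carrier of arginine and lysine, by -0.23 log2. ATF5, a factor related to ATF4, did not pass (48.2 ± 3.68 TPM in sgSETD1A, 49.6 ± 2.57 TPM in sgEmpty, SD, n = 3 each).

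Of 18 other genes around serine, glycine and folate, 14 were tested, of which 2 were higher (14.3%, beside 28.0% of all genes tested) and 1 was lower (7.14%, beside 13.5%), with a median of -0.013 log2 that ran from -0.054 (without sgEmpty replicate 1) to 0.026 (without sgSETD1A replicate 3) when 1 library was left out. The difference from the 5 serine and folate genes was not tested. SFXN1, which carries serine into mitochondria, was at 178 ± 6.42 TPM in sgSETD1A and 130.2 ± 1.32 TPM in sgEmpty (SD, n = 3 each), higher by 0.45 log2 (limma adjusted p = 3.3e-05). TYMS, which makes thymidylate from folate-bound carbon, was higher by 0.32 log2, and SHMT1, the cytosolic counterpart of SHMT2, changed by -0.17 log2. After either rescaling 2 were higher and 2 lower (14.3% each). Of all genes tested, 15.5% were higher and 19.2% lower by median ratios, and 18.0% and 17.3% by quantiles.

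Of 32 other ER folding and degradation genes, 31 were tested, with 5 higher, 5 lower and 21 that did not pass. Higher and lower calls made up 16.1% each, beside 28.0% and 13.5% of all genes tested. By median ratios the split was 2 higher (6.45%, beside 15.5% of all genes tested) and 11 lower (35.5%, beside 19.2%). By quantiles it was 2 higher (6.45%, beside 18.0%) and 10 lower (32.3%, beside 17.3%). It was 3 and 9 without sgSETD1A replicate 1, 2 and 3 without sgSETD1A replicate 3, 3 and 3 without sgEmpty replicate 2, and 2 and 6 without sgEmpty replicate 3. MBTPS2, the membrane protease that releases active ATF6, was at 9.06 ± 0.50 TPM in sgSETD1A and 15.9 ± 0.061 TPM in sgEmpty (SD, n = 3 each), a change of -0.75 log2 (limma adjusted p = 3.0e-05). DNAJC10, a disulfide reductase of the ER, changed by -0.32 log2 and MANF, a secreted protein of the ER stress response, by -0.23 log2. These largest called changes were all lower. The 5 higher genes were P4HB (0.23 log2, limma adjusted p = 0.0012), OS9, PDIA3, DNAJB11 and ERO1A, with changes from 0.16 to 0.23 log2. Of these, P4HB and OS9 passed in all 14 alternatives, and the calls of PDIA3, DNAJB11 and ERO1A were lost in some. XBP1, whose messenger RNA IRE1 splices, was at 1061 ± 47.7 TPM in sgSETD1A and 1108 ± 25.9 TPM in sgEmpty (SD, n = 3 each) and did not pass (limma adjusted p = 0.18), though it passed as lower under both rescalings (limma adjusted p = 0.022 and 0.0021) and without sgSETD1A replicate 1 (0.026). Gene-level TPM does not tell its spliced form from the unspliced one.

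Upstream, 14 genes of the eIF2 kinases, eIF2 and its exchange factor were tested, and 11 did not pass. Of the 14, 2 were higher (14.3%, beside 28.0% of all genes tested) and 1 was lower (7.14%, beside 13.5%). EIF2AK2, the kinase PKR that senses double-stranded RNA, was at 38.7 ± 0.71 TPM in sgSETD1A and 27.5 ± 1.74 TPM in sgEmpty (SD, n = 3 each), higher by 0.48 log2 (limma adjusted p = 0.00019). EIF2S2, a subunit of eIF2, was higher by 0.24 log2. IMPACT, an inhibitor of the amino acid sensor GCN2, was at 14.9 ± 1.12 TPM in sgSETD1A and 25.7 ± 1.09 TPM in sgEmpty (SD, n = 3 each), a change of -0.75 log2 (limma adjusted p = 4.1e-05). EIF2AK4, which encodes GCN2 itself, was level at 12.9 ± 0.19 TPM in sgSETD1A and 12.9 ± 0.63 TPM in sgEmpty (SD, n = 3 each; 95% interval of the change -0.13 to 0.13 log2). The 12 genes named as the largest called changes of these 4 lists passed in all 14 alternatives.

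**Figure D5:**
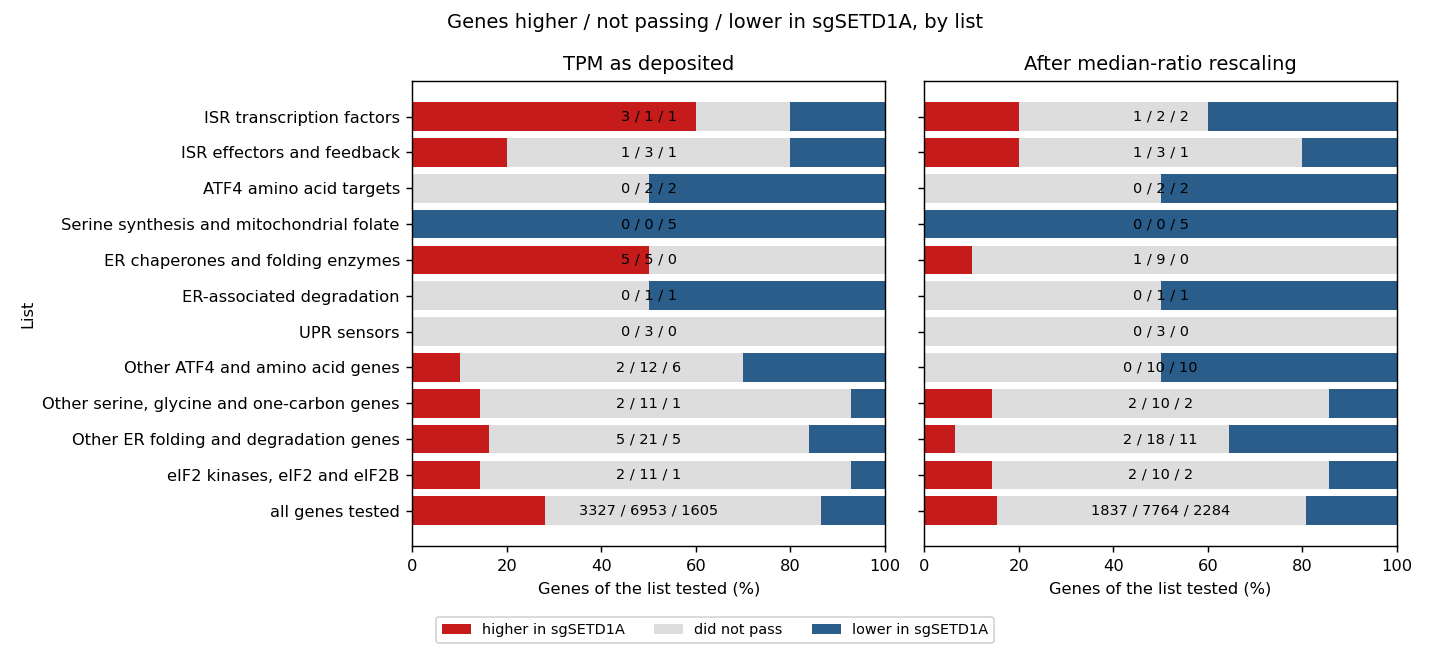
Share of tested genes of each list that were higher (red), did not pass (grey) or were lower (blue) in sgSETD1A, with the counts printed in that order, for TPM as deposited (left) and after median-ratio rescaling (right). The serine and folate list is lower throughout in both panels with 5 of 5, the chaperone list has 5 higher on the left and 1 on the right, and all genes tested have 3327 higher and 1605 lower on the left, 1837 higher and 2284 lower on the right.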

How the data were processed

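RNA of 6 KPL-1 libraries was measured, with 3 sgSETD1A and 3 sgEmpty libraries grouped by their titles; both guide pool libraries of the series were not used here. The authors deposited TPM values per gene symbol, and RSEM 1.3.1, STAR 2.6.0c, bcl2fastq 2.20.0 and the build hg19 are listed, with no role, in the submitters' processing notes. A row without a gene name, holding the column total of 1000000, was left out. TPM keeps no depth, so no count test was run. limma 3.58.1 with a mean-variance trend (R 4.3.3) was fitted to log2(TPM + 1) of genes with a mean of at least 1 TPM; the pseudocount of 1 understates changes of low genes. P-values were Benjamini-Hochberg adjusted over all 11885 genes, and 0.05 was the threshold. The genes and lists were chosen with earlier results of these data known, so their counts are descriptions. Beside the 34 genes, the text names the 3 called genes with the largest absolute change of each other list. XBP1, ATF5, SLC7A5, EIF2AK2 and EIF2AK4 are named too, as are the higher genes of the other ER list. Also named are SETD1A as the check of the target, markers of cell types, and MARS, which was added because its span overlaps DDIT3. Promoters shown are those of the called gene with the largest change in the amino acid, serine and chaperone groups where the table holds it, and HSPA5. Motifs were matched in Python 3.11.15 in RefSeq windows of GRCh38.p14, a build other than that of the expression values. Alternatives changed the pseudocount, filter, scaling, trend, replicate block or set of libraries.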

Additional observations from a re-analysis of the deposited data

How the results depend on the processing

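Each result was recomputed under 14 alternatives: pseudocounts of 0.1 and 5, no filter on low TPM, a mean of at least 5 TPM, median-ratio rescaling, quantile normalization, a replicate block, limma without the trend, and 6 fits that each left out 1 library. No call reversed. Of the 19 calls among the 34 genes, 11 held in every alternative, and 11 of the other 15 genes passed in none. Median-ratio rescaling gave 1837 genes higher over all genes tested, and quantile normalization 2142. Of the 34 genes, 5 were higher without a filter, 3 by median ratios and 5 by quantiles, and 5 to 8 when 1 library was left out. The median of the effectors was -0.028 log2 by median ratios and -0.044 by quantiles, that of the serine and folate genes -0.264 and -0.249, that of the chaperones 0.033 and 0.062, and that of the sensors -0.146 and -0.116. The median of the 2 degradation genes was -0.184 after median-ratio rescaling. The median of the sensors was -0.050 with a pseudocount of 5 and -0.037 for genes averaging 5 TPM or more. When 1 library was left out, the chaperone median ran from 0.073 to 0.151 and that of the sensors from -0.114 to -0.026. The cause of these shifts was not tested. Over all genes tested, same-numbered libraries had correlations of deviations of 0.085, -0.104 and 0.169, and differently numbered ones from -0.210 to 0.139. Among the 10 chaperones, replicate 1 was the highest library for 9 in sgEmpty and for 7 in sgSETD1A. A pairing of the chaperones by replicate number was not tested. The replicate block gave 3103 higher and 1539 lower of all genes and 9 higher and 10 lower of the 34. Depth is unknown, so counting error could not be set beside the spread.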
